A study of Homo sapiens with 6 samples.

Results

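The 10 genes described here belong to the ATF4 arm of the integrated stress response: ATF4 itself, DDIT3, TRIB3, ASNS, CHAC1, SESN2, PSAT1, PHGDH, SLC7A11 and DDIT4. They were taken from a table of 27918 gene and locus rows by symbol, as the rows whose gene name field holds 1 of the 10 symbols, and each symbol was found in exactly 1 row. The table holds FPKM values (fragment counts scaled to transcript length and to the mapped fragments of the library) from poly(A)-selected, paired-end RNA sequencing of HCT-116, an established human colorectal carcinoma line. The libraries were 3 from cells transfected with a negative control GapmeR (GapNC) and 3 from cells transfected with a GapmeR against the long non-coding RNA CASC9 (GapC9). A GapmeR is a chemically modified antisense oligonucleotide that recruits RNase H to cut the RNA it pairs with. The study used GapmeRs at 10 nM, and its text gives both 24 h and 48 h between transfection and harvest. No other treatment was named for either group. The comparison asks how transcript levels differ between cells given the CASC9 GapmeR and cells given the control.

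The integrated stress response starts when the kinases GCN2, PERK, PKR or HRI phosphorylate the alpha subunit of the initiation factor eIF2, in response to amino acid shortage, unfolded protein in the endoplasmic reticulum, double-stranded RNA or heme shortage and mitochondrial stress. General translation initiation then falls, while the ATF4 mRNA is translated more because of upstream open reading frames in its leader. ATF4 pairs with other bZIP proteins, among them members of the C/EBP family, on C/EBP-ATF response elements (CARE) and raises genes for amino acid synthesis and uptake, redox balance and, under lasting stress, cell death. Because ATF4 protein is set largely by translation, the level of its mRNA does not measure its activity.

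Promoter sequence was read for the members because the CARE is the element on which ATF4 acts. The RefSeq promoter table (GRCh38.p14, 250 bases before to 50 bases after each start) held 14 windows for 9 of the 10 genes, with no entry for SLC7A11. The CARE was searched as TGATGNAA and, on the other strand, as TTNCATCA. Among the 14 member windows it was present in 1 of those of ASNS and in that of CHAC1. It was not found in those of the other 7 genes. Sequence outside these windows was not searched, so an element elsewhere would be missed. Over the whole table, 1270 of all 35116 windows held it (3.62%). The matches are printed below on the strand of the gene, 5′ to 3′, with the CARE in capitals. The ASNS stretch is chr7:97872458-97872487 on the minus strand, with the element beginning at position -68 from the start in 1 of its windows, and the CHAC1 stretch is chr15:40953251-40953280 on the plus strand, with the element at -209.
ASNS promoter: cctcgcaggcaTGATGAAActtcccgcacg
CHAC1 promoter: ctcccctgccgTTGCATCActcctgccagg
The endoplasmic reticulum stress element of the unfolded protein response, searched on both strands as CCAAT and CCACG with 9 bases of any kind between them, was not found in any member window and was present in 27 of all windows (0.0769%). The antioxidant response element TGACNNNGC, searched on both strands and the site of the redox factor NRF2, was found for TRIB3 only. The same site lies in each of the overlapping TRIB3 windows. Of all windows, 4687 held the element (13.3%). A match to these letters is a description of the sequence and no evidence of binding.

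CASC9 was listed at 0, 0.0108 and 0 FPKM in the GapNC libraries and at 0.0528, 0.107 and 0 FPKM in the libraries labelled GapC9 (exact two-sided permutation test, p = 0.4, where 3 against 3 libraries cannot go below 0.1). The table therefore shows no lower CASC9 level in the libraries labelled GapC9, and every direction below rests on the labels. Values this near 0 cannot show whether CASC9 was lowered. The paper reports, from RT-qPCR, a reduced CASC9 level in HCT-116 cells transfected with its CASC9 GapmeR. Of 8 colon epithelial markers, 6 averaged at least 1 FPKM, led by KRT8 and KRT18, while VIL1 and LGALS4 stayed at or under 0.0528 FPKM. Their summed level was 1006 to 1401 FPKM in GapNC and 995 to 1261 FPKM in GapC9. The leukocyte markers PTPRC and CD3E did not pass 0.0155 FPKM in any library, the row that holds CD68 also holds 7 other names, and no endothelial marker reached 1 FPKM. Of 3 fibroblast markers read, COL1A1 and COL3A1 averaged at least 1 FPKM and COL1A2 was near 0, and their sum was 4.11 to 5.68 FPKM in GapNC and 4.34 to 5.28 FPKM in GapC9. DCN and LUM, the other fibroblast markers looked for, had no row. GapNC replicate 1 stood apart in base composition: across 10117 rows its deviation from the mean of all libraries rose with transcript GC content (Spearman rho 0.618, a description across genes of 1 library), whereas the other 5 libraries gave -0.384 to 0.0216, the lowest being GapC9 replicates 2 (-0.339) and 3 (-0.384). Nothing in the sources says that replicates were separate cultures, so the p-values below measure the spread between these libraries, which may be technical.

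All 10 genes were detected in all 6 libraries and entered the test, which was run with limma on log2(FPKM + 0.1) over the 16028 rows whose mean reached 0.1 FPKM, and p-values were adjusted by Benjamini-Hochberg over all of them. ASNS rose in the libraries labelled GapC9 and was the only member past an adjusted p of 0.05. That is 1 of 10 higher and 0 of 10 lower, where 1.89% of all rows tested were called higher and 5.10% lower. The study's methods name a fold of 2 or 0.5 and a p under 0.05. With these thresholds applied here to the ratio of mean FPKM and to the unadjusted limma p, CHAC1 was the only member called higher and 0 were called lower, where 2.10% of rows were called higher and 4.32% lower. At an unadjusted p under 0.05 alone, 4 members were higher (ASNS, CHAC1, SESN2 and SLC7A11) and 1 was lower (PHGDH), against 9.09% and 16.8% of all rows. The same 5 genes were those whose 3 GapC9 values all lay on 1 side of the 3 GapNC values, and such separation was seen upward in 12.6% and downward in 21.6% of all rows. The fitted log2 fold change was above 0 for 6 members and below 0 for 4, with a median of 0.13 beside -0.08 over all rows tested.

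**Figure D1:**
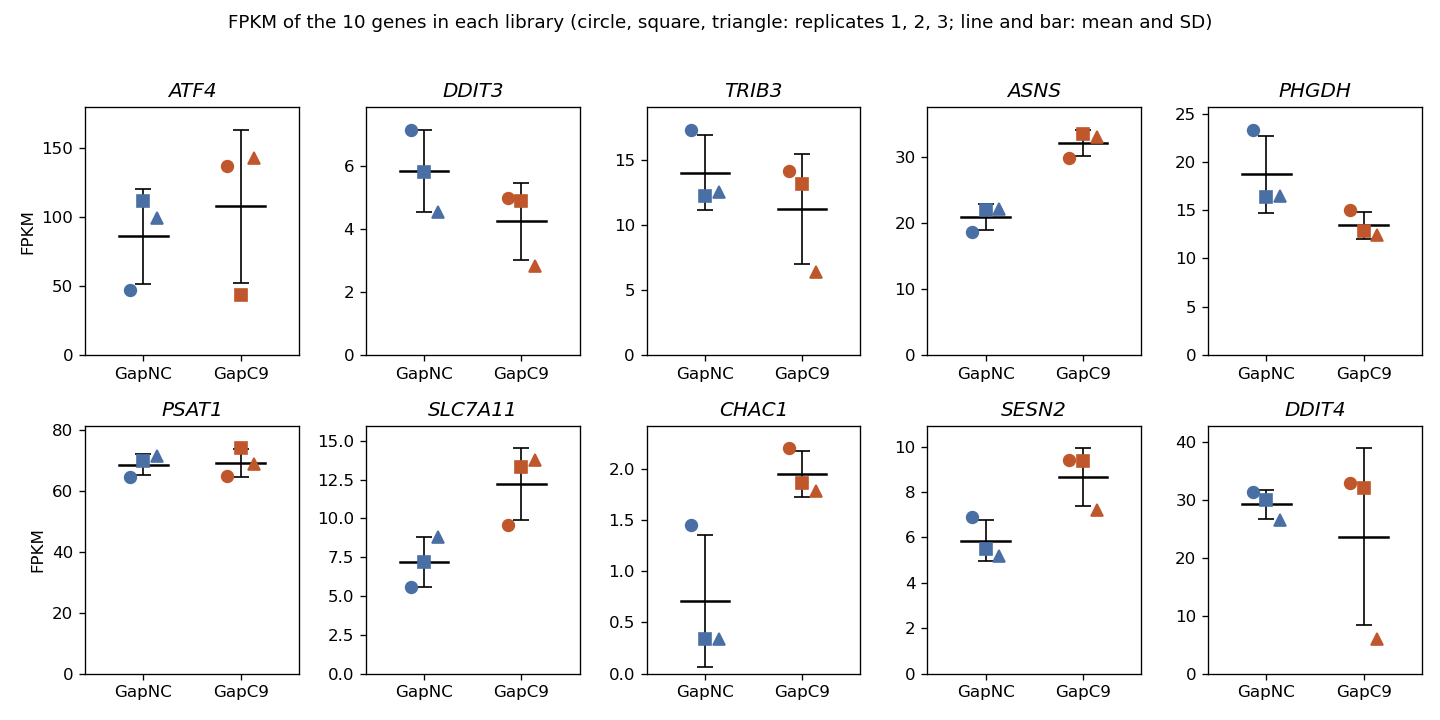
FPKM of each of the 10 genes in the 3 GapNC (blue) and 3 GapC9 (orange) libraries, one panel per gene with its own axis from 0; circles, squares and triangles are replicates 1, 2 and 3, and the line and bar give the mean and SD. The groups are apart for ASNS, PHGDH, SLC7A11, CHAC1 and SESN2 and overlap for the other 5 genes. Some single libraries, such as GapC9 replicate 3 for DDIT4, lie far from their group, whereas the PSAT1 values lie close together.

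Levels can be set side by side because FPKM is scaled to transcript length. Averaged over the 6 libraries, ATF4 was the highest at 96.9 FPKM, followed by PSAT1 at 69.0, ASNS at 26.5, DDIT4 at 26.4, PHGDH at 16.1, TRIB3 at 12.6, SLC7A11 at 9.70, SESN2 at 7.25, DDIT3 at 5.05 and CHAC1 at 1.33 FPKM. The ranges of neighbours in this order overlapped except between PSAT1 and ASNS and between DDIT3 and CHAC1, so the order between the other neighbours is not resolved beyond the spread of the libraries. The members also differed in how far they ranged: the highest library held 6.56 times the lowest for CHAC1, 5.45 times for DDIT4 and 3.27 times for ATF4, but 1.14 times for PSAT1.

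The regulators come first. ATF4 (chr22:39519695-39522685, plus strand; this and the following gene spans are GENCODE 29 on GRCh38) encodes the transcription factor that gives the pathway its name. Its row read 46.9, 112 and 99.1 FPKM in GapNC and 137, 43.7 and 143 FPKM in GapC9. Low libraries occurred in both groups, GapNC replicate 1 and GapC9 replicate 2, and the groups overlapped. The means were 86.0 ± 34.5 and 108 ± 55.6 FPKM (SD, n = 3 each), a log2 fold change of 0.24 ± 0.56 (SE, adjusted p = 0.825 by limma) with a 95% interval from -1.13 to 1.61, which is too wide to exclude a doubling or a halving. The sign turned when GapNC replicate 1 (-0.15), GapC9 replicate 1 (-0.02) or GapC9 replicate 3 (-0.05) was left out. Of 4 annotated ATF4 pseudogenes, 2 had rows of their own, the higher being ATF4P3 with at most 0.687 FPKM.

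The 3 rows nearest to ATF4 in their pattern across libraries were picked by distance. Among 10032 rows compared, the smallest root mean square distances between centred log2 values over the 6 libraries were 0.151 for the row that joins LEPROTL1 and DCTN6, 0.195 for ATG12, which encodes a ubiquitin-like protein of autophagosome formation, and 0.248 for HINT3. ATG12 read 3.20, 8.52 and 10.5 FPKM in GapNC and 11.6, 3.97 and 11.7 FPKM in GapC9, low in the same pair of libraries as ATF4. No other member was among the 3 rows. They were chosen for their likeness over 6 libraries, so the dips they share with ATF4 follow from that choice. The distances of the remaining rows were not examined.

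**Figure D2:**
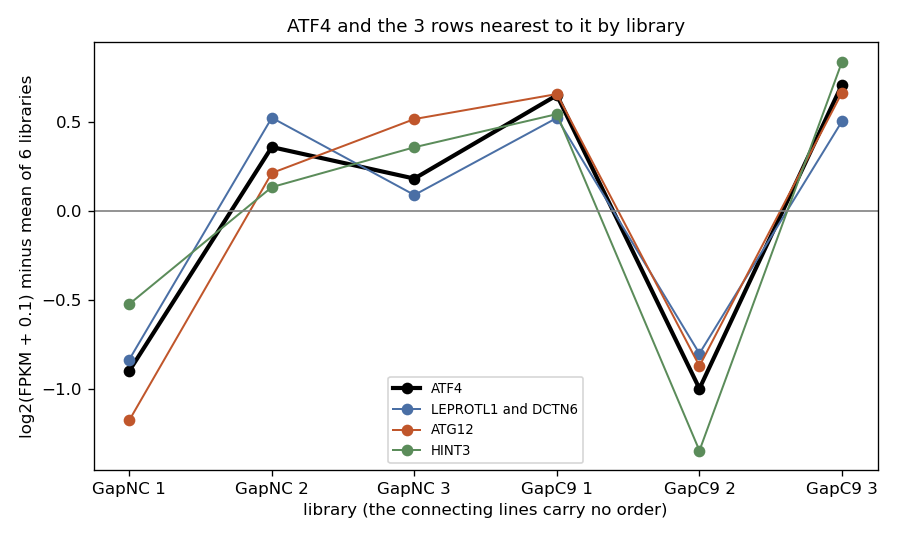
log2(FPKM + 0.1), centred over the 6 libraries, for ATF4 and for the 3 rows with the most similar profile (LEPROTL1 with DCTN6, ATG12 and HINT3), by library. All 4 lines dip in GapNC replicate 1 and in GapC9 replicate 2.

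DDIT3 (chr12:57516588-57521737, minus strand) encodes CHOP, a bZIP factor induced by ATF4 that takes part in death under lasting stress. It was measured at 7.16, 5.82 and 4.56 FPKM in GapNC and at 5.0, 4.91 and 2.83 FPKM in GapC9. The groups overlapped, with the lowest value in GapC9 replicate 3. The difference from 5.85 ± 1.3 to 4.24 ± 1.23 FPKM (SD, n = 3 each) gave a log2 fold change of -0.47 ± 0.28 (SE, limma adjusted p = 0.337). DDIT3 shares 355 exonic bases with MARS on the opposite strand, and MARS itself read 32.1 to 45.5 FPKM in GapNC and 22.9 to 25.5 FPKM in GapC9. It also shares 58 with MBD6 on the opposite strand, which read 2.66 to 3.49 FPKM in GapNC and 4.24 to 5.13 FPKM in GapC9, and 105 with AC022506.1 on its own strand. Whether strand was used in the counting is not given in the sources used here, so reads over the shared bases cannot be told apart.

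TRIB3 (chr20:362835-397559, plus strand) encodes a pseudokinase that ATF4 and CHOP induce and that in turn restrains them and binds AKT. Its values were 17.3, 12.2 and 12.6 FPKM in GapNC and 14.2, 13.2 and 6.39 FPKM in GapC9. Only GapC9 replicate 3 fell below the control range. The fitted difference was -0.38 ± 0.33 on the log2 scale (SE, limma adjusted p = 0.515), and it was -0.02 without GapC9 replicate 3.

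Among the amino acid synthesis enzymes, ASNS (chr7:97852118-97872542, minus strand) encodes asparagine synthetase, which makes asparagine from aspartate and glutamine and is a classical ATF4 target through the CARE printed above. The row read 18.6, 22.0 and 22.1 FPKM in GapNC and 29.9, 33.5 and 33.1 FPKM in GapC9. All GapC9 libraries lay above all GapNC libraries, with little spread inside either group. The means of 20.9 ± 2.0 and 32.2 ± 1.99 FPKM (SD, n = 3 each) gave a ratio of 1.54 and a log2 fold change of 0.62 ± 0.11 (SE, 95% interval 0.35 to 0.89, limma adjusted p = 0.0340). The row also carries the names AC079781.5 and AC004967.1, and AC079781.5 shares 1985 exonic bases with ASNS on the same strand. The change kept its direction and an unadjusted p under 0.05 in all 17 alternative fits. The adjusted call held in 9 of them: it held without GapNC replicate 1 (0.0406), and was lost when any other single library was left out (highest adjusted p 0.129), with the replicate number as a block (0.0608), without the filter on low rows (0.0543) and without the variance trend (0.0533).

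PHGDH (chr1:119648411-119744226, plus strand) catalyses the committed step of serine synthesis from the glycolytic intermediate 3-phosphoglycerate. It stood at 23.3, 16.4 and 16.5 FPKM in GapNC and at 15.1, 12.9 and 12.4 FPKM in GapC9. Every GapC9 value was below every GapNC value, although GapNC replicate 1 set much of the distance. The means were 18.7 ± 4.0 and 13.5 ± 1.41 FPKM (SD, n = 3 each), a log2 fold change of -0.46 ± 0.17 (SE) that did not pass adjustment (limma adjusted p = 0.169) and was -0.29 without GapNC replicate 1. Its unadjusted p was under 0.05 in 13 of 17 alternative fits.

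PSAT1 (chr9:78297143-78330093, plus strand) catalyses the next step, the transamination to phosphoserine. The gene gave 64.8, 69.7 and 71.5 FPKM in GapNC and 64.9, 74.0 and 68.9 FPKM in GapC9. The groups lay on top of each other. The log2 fold change was 0.01 ± 0.09 (SE, limma adjusted p = 0.952), with a 95% interval from -0.21 to 0.23, the narrowest of the 10 genes. PSAT1 exceeded PHGDH 2.77, 4.26 and 4.34 times in the GapNC libraries and 4.31, 5.75 and 5.55 times in the GapC9 libraries, ratios that overlap between the groups. Of the 3 synthesis enzymes, ASNS alone therefore passed the adjusted test.

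The cystine and glutathione genes were both higher in every library labelled GapC9 than in any control. SLC7A11 (chr4:138164097-138242349, minus strand) encodes xCT, the light chain of the antiporter that takes up cystine in exchange for glutamate and so feeds glutathione synthesis. It read 5.59, 7.18 and 8.79 FPKM in GapNC and 9.58, 13.3 and 13.8 FPKM in GapC9. The groups did not overlap, but the highest control came close to the lowest GapC9 library. From 7.19 ± 1.6 to 12.2 ± 2.30 FPKM (SD, n = 3 each) the ratio was 1.70 and the log2 fold change 0.76 ± 0.22 (SE, 95% interval 0.22 to 1.3, unadjusted p = 0.0134, limma adjusted p = 0.0964). The unadjusted p stayed under 0.05 in all 17 alternative fits. An antisense gene, SLC7A11-AS1, shares 865 exonic bases and its own row did not pass 0.142 FPKM.

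CHAC1 (chr15:40952962-40956519, plus strand) encodes a gamma-glutamylcyclotransferase that degrades glutathione and is a target of ATF4 and CHOP. Its values were 1.45, 0.336 and 0.336 FPKM in GapNC and 2.20, 1.86 and 1.79 FPKM in GapC9. The GapC9 libraries were close to each other and above all controls, among which GapNC replicate 1 was the high one. The means were 0.709 ± 0.645 and 1.95 ± 0.222 FPKM (SD, n = 3 each), a ratio of 2.75. The log2 fold change of 1.62 ± 0.52 (SE, 95% interval 0.35 to 2.88) had an unadjusted p of 0.0203 and a limma adjusted p of 0.119. Without GapNC replicate 1 it was 2.23 (adjusted p = 0.0213), and with a pseudocount of 1 FPKM it was 0.85. The unadjusted p was under 0.05 in 14 of 17 alternative fits. The call by the study's thresholds was lost without GapNC replicate 2, GapNC replicate 3 or GapC9 replicate 1, with an unadjusted limma p between 0.0604 and 0.0688. The fragments behind these values were estimated from the length of the longest listed transcript. If the most frequent gap among low values stands for 1 fragment, they numbered about 15 to 94 a library. That was the fewest of the 10 genes except in GapC9 replicate 3, where DDIT3 had about 71 and CHAC1 about 78.

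**Figure D3:**
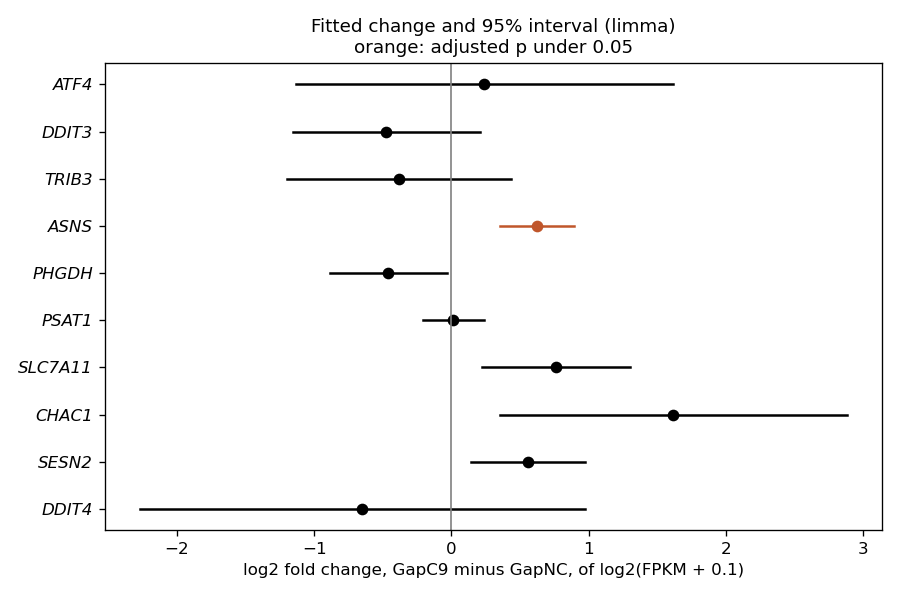
Fitted log2 fold change (GapC9 minus GapNC, log2(FPKM + 0.1) scale) of the 10 genes with 95% intervals from the limma fit on 3 libraries a group. ASNS, CHAC1, SESN2 and SLC7A11 have intervals above 0 and PHGDH has one below 0, and ASNS alone passes an adjusted p of 0.05.

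SESN2 and DDIT4 both encode inhibitors of mTORC1, the kinase complex that couples amino acid and growth factor supply to growth. SESN2 (chr1:28259527-28282491, plus strand) encodes Sestrin 2, a leucine sensor that acts through GATOR2. It was read at 6.88, 5.49 and 5.18 FPKM in GapNC and at 9.40, 9.38 and 7.19 FPKM in GapC9. The GapC9 values all lay above the controls, narrowly so for GapC9 replicate 3 against GapNC replicate 1. The ratio of 8.66 ± 1.27 to 5.85 ± 0.910 FPKM (SD, n = 3 each) was 1.48, and the log2 fold change was 0.56 ± 0.17 (SE, 95% interval 0.15 to 0.97, unadjusted p = 0.0163, limma adjusted p = 0.107). The unadjusted p was under 0.05 in 13 of 17 alternative fits and in 2 of the 6 that leave out a library.

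DDIT4 (chr10:72273920-72276036, plus strand) encodes REDD1, which acts through the TSC complex. Its values were 31.3, 29.9 and 26.4 FPKM in GapNC and 32.8, 32.0 and 6.02 FPKM in GapC9. GapC9 replicates 1 and 2 exceeded all controls while GapC9 replicate 3 was far below every other library. The means of 29.2 ± 2.51 and 23.6 ± 15.2 FPKM (SD, n = 3 each) gave a log2 fold change of -0.65 ± 0.66 (SE, limma adjusted p = 0.579). Leaving out GapC9 replicate 3 turned the sign, to 0.15 (adjusted p = 0.508). DDIT4-AS1, which shares 847 exonic bases with DDIT4, was at 0 in 5 libraries and at 0.0351 FPKM in the other.

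With 10 genes and 6 libraries, some members must share the library of their highest or lowest value. The share of all rows with such extremes in each library was not counted. GapC9 replicate 3 was the lowest of the 6 libraries for DDIT3, TRIB3, PHGDH and DDIT4 and the highest for ATF4 and SLC7A11. GapNC replicate 1 was the highest for DDIT3, TRIB3 and PHGDH and the lowest for ASNS, PSAT1 and SLC7A11. Both libraries had a GC trend, of opposite sign (rho -0.384 and 0.618). GapC9 replicate 2, with a rho of -0.339, was the highest for ASNS and PSAT1 and the lowest for ATF4. The GC content of the longest listed transcript ran from 35.4% for SLC7A11 to 62.6% for CHAC1. Between them lay TRIB3 at 60.9%, SESN2 59.5%, DDIT4 58.1%, ATF4 56.7%, PHGDH 52.3%, DDIT3 49.7%, ASNS 49.3% and PSAT1 42.3%. ATF4 was low in GapNC replicate 1 and highest in GapC9 replicate 3. Whether GC content accounts for the extreme values was not tested. After a per-library correction against GC content, 4 members were called higher (ASNS, adjusted p = 0.0174; CHAC1, 0.0298; SESN2, 0.00957; SLC7A11, 0.0316) and 0 lower, but the share of all rows called rose as well, to 7.12% higher and 7.71% lower. With this correction the log2 fold change rose from 0.62 to 0.71 for ASNS, from 1.62 to 1.96 for CHAC1 and from 0.56 to 0.84 for SESN2. That of SLC7A11 shrank from 0.76 to 0.59.

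**Figure D4:**
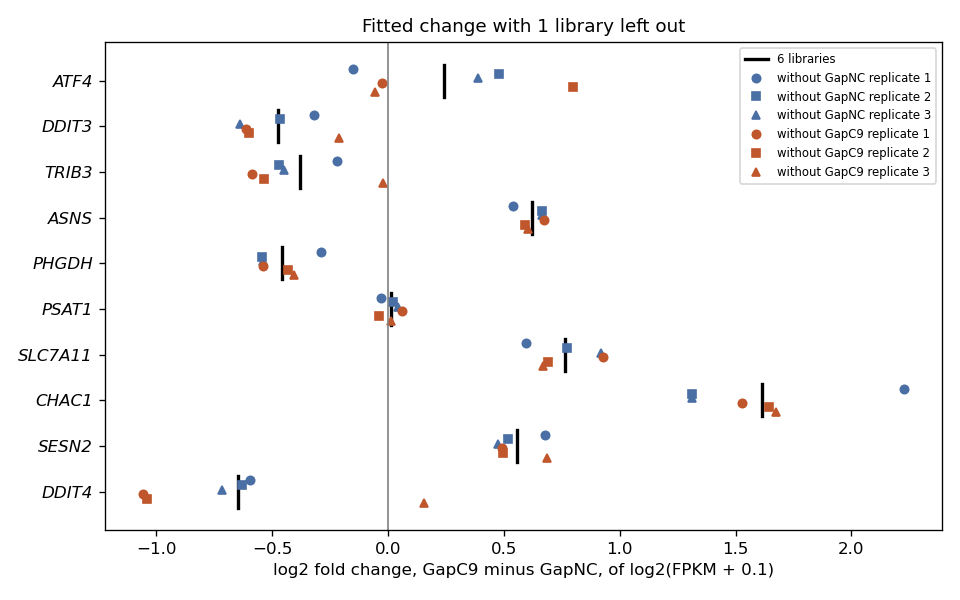
Log2 fold change (GapC9 minus GapNC) of each gene with all 6 libraries (black bar) and with each library left out in turn (colour for its group, shape for its replicate). ASNS, SLC7A11, CHAC1 and SESN2 stay above 0 and DDIT3, TRIB3 and PHGDH below 0 in all 6 fits, while ATF4, PSAT1 and DDIT4 cross 0.

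The rest of the pathway was read from 11 lists of related genes, which gave 149 rows, 139 of them tested. Of these 5 rose and 8 fell at an adjusted p of 0.05, where 1.89% of all rows were called higher and 5.10% lower. A fold change above 0 was seen in 70 and one below 0 in 69, beside 6993 and 9035 of all rows tested. Upstream of ATF4, 12 rows for the eIF2 kinases, eIF2 and its phosphatase subunits held 1 that rose and 0 that fell. PPP1R15A, which encodes GADD34, the stress-induced subunit that brings phosphatase to eIF2, went from 19.1, 19.5 and 18.3 to 39.5, 34.7 and 28.1 FPKM (log2 fold change 0.83 ± 0.14 SE, limma adjusted p = 0.0314). Of the 5 subunits of eIF2B, the exchange factor that phosphorylated eIF2 blocks, EIF2B3 fell (-0.78 ± 0.13 SE, adjusted p = 0.0308) and 0 rose, where 5.10% of all rows were called lower. The EIF2B3 call was lost with median scaling (adjusted p = 0.0510) and quantile normalization (0.0553).

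Among 13 rows for bZIP factors that partner or resemble ATF4, ATF3 rose and 0 fell by adjusted p. Over all rows tested, 1.89% were called higher and 5.10% lower. ATF3 encodes a stress-induced factor downstream of ATF4, and its values of 5.84, 6.64 and 5.60 FPKM in GapNC and 12.1, 13.0 and 11.7 FPKM in GapC9 are well apart (1.02 ± 0.11 SE, limma adjusted p = 0.0159). It also passed the study's thresholds, as did the row that joins SIRT7 and MAFG in the other direction (9.42 ± 3.36 to 4.0 ± 0.574 FPKM, SD, n = 3 each, adjusted p = 0.0819), which cannot be split between those genes.

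Of 22 tested rows for other ATF4 and CHOP outputs, 3 rose and 0 fell: ATF3, PPP1R15A and the row joining PGPEP1 with GDF15, a secreted stress cytokine (10.4 ± 1.63 to 18.0 ± 2.38 FPKM, SD, n = 3 each, limma adjusted p = 0.0477). The row that joins PGPEP1 and GDF15 cannot be split between those genes. The share called over all rows was again 1.89% higher and 5.10% lower. ATF3 and PPP1R15A are the same rows as in the lists above, so they add no further calls. BCL2L11, which encodes the pro-apoptotic protein BIM, was lower by the study's thresholds only (2.99, 3.83 and 3.76 against 0.525, 1.34 and 2.20 FPKM, adjusted p = 0.113). The median fold change of this list was 0.08 on the log2 scale.

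The metabolic lists held few calls in either direction, where 1.89% of all rows were called higher and 5.10% lower by adjusted p. In amino acid and one-carbon synthesis 12 of 14 rows were tested, 0 rose and MTHFD1L, a mitochondrial folate enzyme, fell (17.4 ± 1.01 to 11.9 ± 0.110 FPKM, SD, n = 3 each, limma adjusted p = 0.0311). Of 12 aminoacyl-tRNA synthetases, EPRS (log2 fold change -0.69 ± 0.09 SE, adjusted p = 0.0186) and IARS (-0.54 ± 0.09 SE, adjusted p = 0.0314) fell and 0 rose. Of 10 amino acid transporters 0 passed by limma in either direction, with 2 higher and 2 lower at an unadjusted p under 0.05, where 9.09% and 16.8% of all rows were. Among 14 glutathione and cystine genes linked to NRF2, the row of SRXN1, which encodes sulfiredoxin, rose (24.9 ± 1.39 to 37.3 ± 1.81 FPKM, SD, n = 3 each, adjusted p = 0.0286) and 0 fell. The 21 endoplasmic reticulum chaperones and other unfolded protein response genes gave 0 calls by limma, with 1 higher and 2 lower at an unadjusted p under 0.05, beside the same 9.09% and 16.8%.

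Among 6 tested paralogs of the members, SESN1, a further sestrin, rose from 2.21 ± 0.301 to 3.88 ± 0.217 FPKM (SD, n = 3 each, limma adjusted p = 0.0314) and SLC7A6, an amino acid transporter subunit, fell from 7.07 ± 0.256 to 4.93 ± 0.180 FPKM (adjusted p = 0.0381). In the mTORC1 list, on whose products SESN2 and DDIT4 act, 3 of 19 rows fell and 0 rose, with a median of -0.22, beside 5.10% called lower, 1.89% called higher and a median of -0.08 over all rows tested. The 3 were RPTOR, the scaffold of mTORC1 (8.53, 9.69 and 8.53 against 3.41, 3.10 and 4.09 FPKM; -1.32 ± 0.14 SE, adjusted p = 0.0159), TSC2, an inhibitor of the complex (7.33, 5.43 and 5.46 against 3.13, 2.88 and 2.76 FPKM; -1.02 ± 0.15 SE, adjusted p = 0.0269), and the kinase MTOR itself (-0.72 ± 0.10 SE, adjusted p = 0.0239). The 3 include core parts of the complex and an inhibitor of it. None of the related rows named here changed sign in any of 17 alternative fits, but each passed an adjusted p of 0.05 in at most 1 of the 6 fits that leave out a library. Of the 13 called by adjusted p, median scaling lost 4 (EIF2B3, MTHFD1L, IARS and SLC7A6) and quantile normalization 3 (EIF2B3, IARS and SLC7A6).

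**Figure D5:**
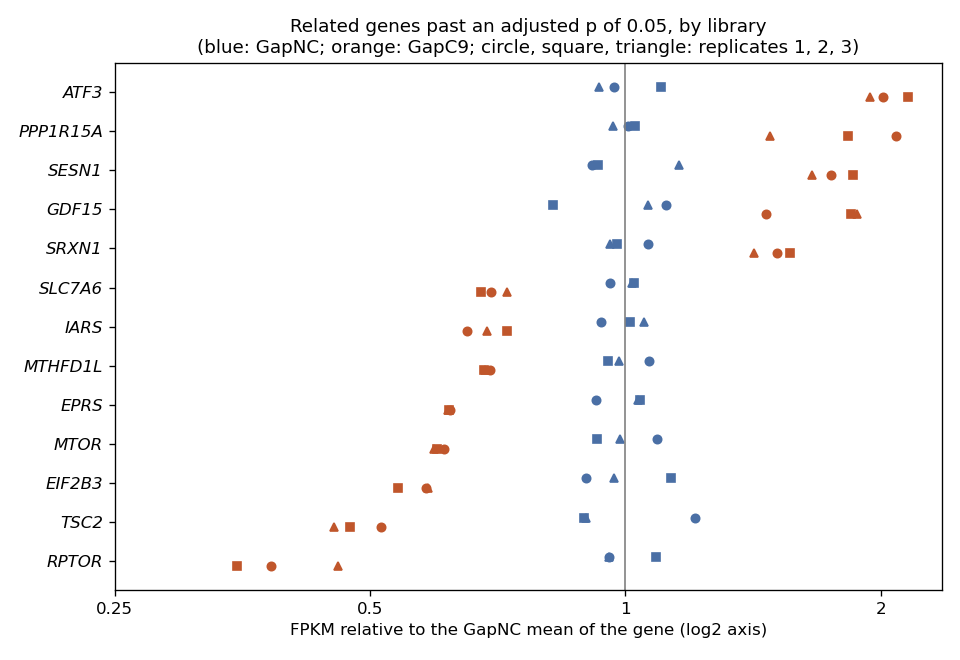
FPKM of the 13 related rows past an adjusted p of 0.05 in each library, divided by the mean of the 3 GapNC libraries of that row, on a log2 axis; blue is GapNC, orange GapC9, and circle, square and triangle are replicates 1, 2 and 3. The 5 rows that rose and the 8 that fell have all 3 orange points on 1 side of the blue points, from RPTOR at a ratio of means of 0.396 to ATF3 at 2.03.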

How the data were processed

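Poly(A) RNA of HCT-116 cells was sequenced by the authors in paired ends, 3 libraries per group as the labels give them. The authors deposited FPKM values per gene or assembled locus; their methods name HISAT alignment to the UCSC human genome and StringTie, and the submitters' processing notes list HISAT2 2.0, StringTie 1.3.0, Bowtie 0.12.2 and build mm8, a mouse build, although the identifiers are human. No coordinates from the table were used. The table holds no counts, so the edgeR test named by the study was not run. Depth is not stated. If the most frequent gap among low FPKM values stands for 1 fragment, the libraries held 22900000 to 24200000 fragments. No FPKM column was left unused.

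The FPKM values were analysed as log2(FPKM + 0.1), so fold changes of low genes are understated. Rows with a mean of at least 0.1 FPKM (16028 of 27918) were fitted with limma 3.58.1 (R 4.3.3, empirical Bayes with trend, two-sided) and adjusted by Benjamini-Hochberg. The fit was tested on simulated data with independent noise and no GC trend between libraries, so that test does not cover such a trend. CASC9 was compared by exact permutation (SciPy 1.17.1). Gene spans and overlaps came from GENCODE 29, promoters from RefSeq. Alternatives changed the pseudocount, filter, scaling, variance model, replicate block, GC correction and the libraries. The members and lists were chosen with earlier results of these data known. Named genes were all members, every related row past either call rule and the 3 rows nearest to ATF4; genes that overlap a member were named outside this rule.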

Additional observations from a re-analysis of the deposited data

How the results depend on the processing

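Of the 10 genes, 1 was called higher by adjusted p with 6 libraries. The count was 0 with no filter on low rows, with no variance trend and with the replicate block, 4 with the GC correction and 0 to 2 when 1 library was left out (2, ASNS and CHAC1, without GapNC replicate 1). The count by the study's thresholds was 0 to 1 when 1 library was left out. For the related lists, 5 rows called higher became 9 with a filter at a mean of 1 FPKM, 2 with no filter, 10 with median scaling, 0 with the replicate block, 21 with the GC correction and 0 to 3 with 1 library left out. The 8 rows called lower became 4 with median scaling, 5 with no variance trend, 0 with the replicate block and 0 to 9 with 1 library left out. Leaving out a library also cut the calls over all rows, from 303 higher and 817 lower to between 16 and 240 higher and 16 and 570 lower. Signs turned for ATF4 (-0.15, -0.02 and -0.05 without GapNC replicate 1, GapC9 replicate 1 and GapC9 replicate 3, in a range up to 0.80), PSAT1 (-0.030 without GapNC replicate 1, -0.037 without GapC9 replicate 2, in a range up to 0.058, and -0.021 with the GC correction) and DDIT4 (0.15 without GapC9 replicate 3, in a range down to -1.06). The members' median ran from -0.09 to 0.25 with 1 library left out. Median scaling moved the median of all rows from -0.08 to 0.06 on the log2 scale and that of the members to 0.28, and turned the split of calls over all rows from 303 higher and 817 lower to 508 higher and 437 lower. The replicate block called 0 of all 16028 rows. Same-numbered libraries correlated at 0.113, 0.0362 and 0.0332 in their deviations from the group means. Libraries with unlike numbers correlated at -0.119 to 0.0867. These values do not settle whether the libraries were paired. The labels name no pairs, and the numbers were not taken as pairs. Summing all rows that hold a symbol changed nothing, since each symbol is in 1 row. The cause of these changes was not tested.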

Other observations

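The gene ontology terms that the authors' table attaches to the 10 rows group them in a way the rule did not use. The term for intrinsic apoptotic signaling in response to endoplasmic reticulum stress is attached to 4 of them (ATF4, DDIT3, TRIB3 and CHAC1) and to 30 rows of the table in all. Of these 4, CHAC1 alone had groups that did not overlap, where 12.6% of all rows tested were apart upward and 21.6% downward. The term for the PERK branch of the unfolded protein response covers ASNS, ATF4 and DDIT3 among 11 rows, and that for amino acid biosynthesis covers ASNS, PHGDH and PSAT1 among 43 rows. The members of both terms had fold changes of mixed size and sign. The ontology holds the CHOP-ATF4 complex as a term with exactly 2 rows, ATF4 and DDIT3, whose fold changes in these libraries were 0.24 and -0.47 on the log2 scale, neither past the threshold.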
